A study of Mus musculus with 816 samples.

Results

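The interferon regulatory factors described here were Irf1, Irf2, Irf3, Irf4, Irf5, Irf7, Irf8 and Irf9, taken by gene symbol, and all 8 were present among the 45581 genes listed for cultured microglia and the 29858 listed for microglia isolated from mice. RNA was sequenced from 784 cultures of commercial primary neonatal mouse microglia, grown in 96-well plates and exposed to single or combined stimuli for 4, 24 or 72 h, with 40 untreated cultures at 24 h and 25 at 72 h. It was also sequenced from CD11b-selected microglia of female C57BL/6 mice aged 2 months, taken 4 h after an intraperitoneal injection of PBS (n = 4) or LPS at 2 mg/kg (n = 4), and of male C57BL/6 mice, labelled naive, aged 2 months (n = 11) or 22 months (n = 13). The data columns of 8 of these 24 male mice are named for a vehicle. LPS, a bacterial cell wall component sensed by TLR4, was given to cultures at a higher dose of 0.0001 ug/ul or a lower dose of 1e-05 ug/ul. The type I interferons IFNa and IFNb were used at 0.0008 and 0.0001 ug/ul, the type II interferon IFNg at 0.0001 ug/ul, the double-stranded RNA mimic polyIC (IC in the labels) at 0.2 ug/ul and P3C, a lipopeptide ligand of TLR2, at 0.001 ug/ul.

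Interferon regulatory factors are transcription factors that bind GAAA-containing elements in interferon-responsive promoters. Irf3 and Irf7 are activated by phosphorylation downstream of nucleic acid and Toll-like receptors and turn on type I interferon genes, and Irf5 acts beside them in inflammatory signalling. Irf9 is the main DNA-binding part of the ISGF3 complex, through which type I interferon acts on its target genes. Irf1 is an interferon-induced activator, Irf2 competes with it for the same elements, Irf8 is a lineage factor of microglia and other myeloid cells, and Irf4 is linked to the response to IL4.

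Values were treated as CPM, reads per gene scaled to a common library total. They are not corrected for gene length, so levels were not compared between genes. Estimated depth was 1.003 to 38.197 M reads per culture and 2.362 to 7.78 M per mouse (M, mega). Of the microglial markers, Tmem119 and P2ry12 were low in untreated cultures at 24 h, with medians of 14.6 and 3.49 CPM. Cultures were spread over 10 plates, and untreated levels differed between plates for some members. In untreated cultures at 24 h, the median of Irf7 ran from 10.4 CPM on 1 plate to 111.3 CPM on another.

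Promoter windows of the members whose responses to type I and type II interferon differed most are shown first, as RefSeq sequence of build GRCm38.p6, from 250 bases before to 50 bases after an annotated start. Capitals mark matches to the STAT-type element TTCNNNGAA, which reads the same on both strands.
Irf1 (chr11:53769764-53770063, + strand): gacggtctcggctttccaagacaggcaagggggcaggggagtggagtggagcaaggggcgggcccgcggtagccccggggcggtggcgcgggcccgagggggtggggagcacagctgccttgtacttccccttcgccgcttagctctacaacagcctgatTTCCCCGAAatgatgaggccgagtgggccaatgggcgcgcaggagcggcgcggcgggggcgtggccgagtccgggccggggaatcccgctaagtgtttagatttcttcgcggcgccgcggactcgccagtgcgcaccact
Irf8 (chr8:120736108-120736407, + strand): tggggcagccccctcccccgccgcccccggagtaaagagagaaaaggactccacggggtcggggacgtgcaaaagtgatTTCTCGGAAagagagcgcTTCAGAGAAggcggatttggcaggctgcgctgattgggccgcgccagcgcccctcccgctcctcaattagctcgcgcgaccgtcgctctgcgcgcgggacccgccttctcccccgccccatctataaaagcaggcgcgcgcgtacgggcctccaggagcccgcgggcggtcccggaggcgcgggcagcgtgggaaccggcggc
Irf7 (chr7:141266375-141266674, - strand): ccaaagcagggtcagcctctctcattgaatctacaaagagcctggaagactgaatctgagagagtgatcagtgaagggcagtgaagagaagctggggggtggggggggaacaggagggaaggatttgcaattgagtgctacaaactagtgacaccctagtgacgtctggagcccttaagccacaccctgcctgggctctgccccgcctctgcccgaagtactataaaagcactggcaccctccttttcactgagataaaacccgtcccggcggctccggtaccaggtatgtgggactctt
This element was present once in the first Irf1 window and at 2 places in the first Irf8 window. It was absent from the Irf7 window, and 8.3% of 32851 promoter windows held it. The interferon-stimulated element core, a pair of GAAA blocks with any 2 bases between them, searched on both strands, was absent from these 3 windows and was held by 3.44% of all windows. The other annotated window of Irf1 and that of Irf8 held neither element. The Irf2 window held both, though Irf2 was not called between the interferons below, and the windows of Irf3, Irf4, Irf5 and Irf9 held neither. A match is a description of the letters and was not tested as a binding site.

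The first comparison asked which members each stimulus moved at 24 h. Members were called when the adjusted p from limma was below 0.05 and the change was at least 1 on the log2(CPM + 1) scale, the scale of all fold changes below. Of 304 member and stimulus pairs over 38 stimuli, 27 rose and 5 fell, or 10.5%, against 3.05% of all gene and stimulus pairs (1.16% higher and 1.89% lower). The calls came from 13 stimuli, and no call was made for the other 25, among them GABA, dopamine, glutamate, rapamycin and minocycline. Interferons, polyIC and LPS gave most of the rises, as the map of differences shows.

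**Figure D1:**
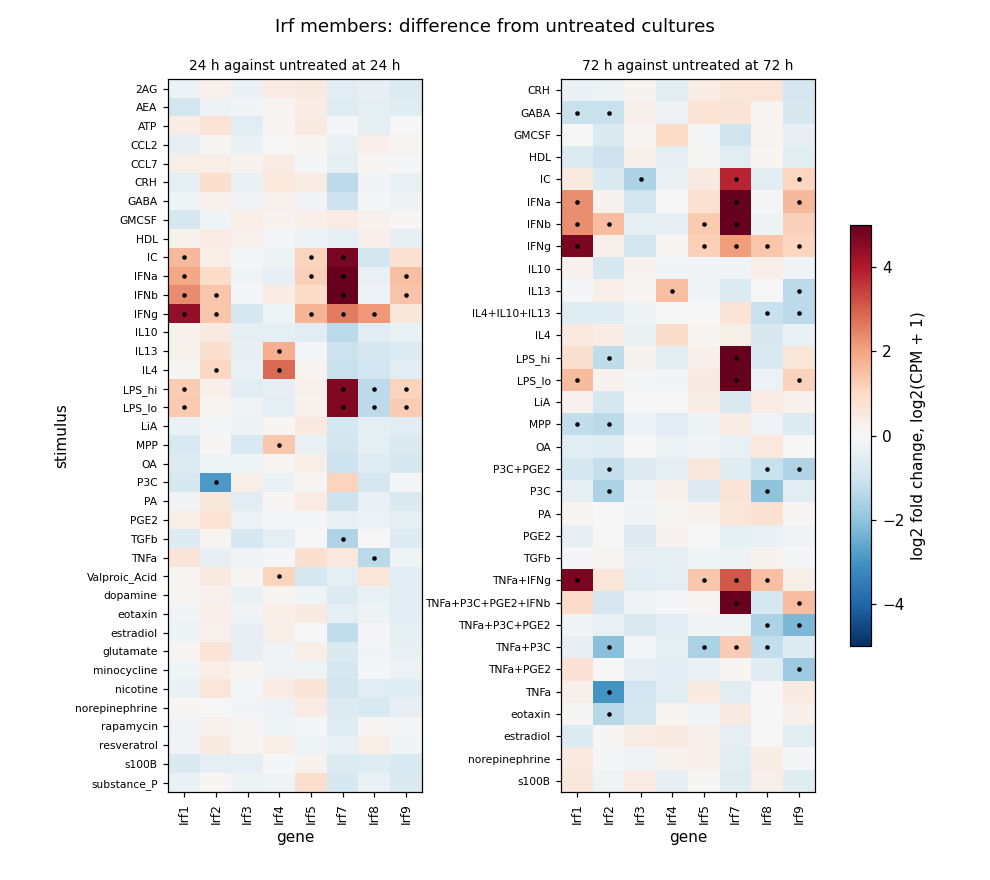
Log2 fold change of each member (columns) for each stimulus (rows) against untreated cultures of the same time, at 24 h (left) and 72 h (right). Dots mark called differences, colours saturate at 5, and Irf1 and Irf7 carry the darkest red cells in the interferon rows.

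Irf7 had the largest responses. Its level in untreated cultures at 24 h was 65.1 ± 47.2 CPM (SD, n = 40, lowest 4.95, median 62.9, highest 187.9). IFNa raised it to 1966 ± 277 CPM (n = 8, lowest 1584, highest 2427), a log2 fold change of 5.33 ± 0.42 (SE, limma adjusted p = 5.65e-30). IFNb raised it to 1734 ± 606 CPM (n = 10), by 5.07 ± 0.39 (limma adjusted p = 2.11e-32). Every culture with IFNa or IFNb lay above every untreated culture.

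Irf7 also rose with LPS, polyIC and IFNg. It reached 1224 ± 272 CPM with LPS at the higher dose (n = 18, lowest 724, median 1250, highest 1762), a change of 4.63 ± 0.31 (limma adjusted p = 2.03e-41). With IFNg it reached 305 ± 104 CPM (n = 9), with the lowest culture at 160.0 CPM, inside the untreated range, and a change of 2.59 ± 0.40 (limma adjusted p = 1.73e-08). In the order of all 97 groups of cultures, the 3 highest means of Irf7 were those of IFNa at 24 h, IFNa at 72 h and IFNb at 24 h, which differed by less than their SDs. With TGFb Irf7 fell by 1.52, and this call was lost with the plate as a term (change -0.70).

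Irf1 was highest with IFNg. Untreated cultures at 24 h held 23 ± 10.2 CPM (n = 40, lowest 3.96, median 24.8, highest 41.2). IFNg cultures held 308.7 to 549.8 CPM (n = 9, median 503.7), 21.15-fold above untreated and a log2 fold change of 4.40 ± 0.31 (limma adjusted p = 4.59e-37). IFNa gave 82.6 ± 16.2 CPM and IFNb 111.0 ± 25.7 CPM, changes of 1.95 ± 0.33 and 2.36 ± 0.30. The untreated range overlapped with none of these 3 groups. LPS at the higher dose gave 58.3 ± 26.1 CPM (n = 18), a rise of 1.27 ± 0.24 (limma adjusted p = 1.74e-06), with overlapping ranges.

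Irf8 was called higher with IFNg and lower with LPS and TNFa. Untreated cultures at 24 h held 370 ± 143 CPM (n = 40, lowest 165.4, median 317.3, highest 820.6). IFNg gave 1582 ± 225 CPM (n = 9, lowest 1309, median 1530, highest 1918), above every untreated culture, with a change of 2.17 ± 0.19 (limma adjusted p = 2.65e-26). LPS at the higher dose gave 147.6 ± 47.6 CPM (n = 18), a change of -1.30 ± 0.14, and at the lower dose 144.7 ± 35.9 CPM (n = 7), a change of -1.30 ± 0.21. TNFa gave 141.4 ± 41.2 CPM (n = 7), a change of -1.35 ± 0.21 (limma adjusted p = 4.86e-08), which became -0.88 with the library pool as a term. Irf8 was also lower with IL4 (-0.94), polyIC (-0.90), IL13 (-0.85) and P3C (-0.83), at limma adjusted p below 0.05 but short of the minimum fold change. The IL4 value was called at -1.04 when scaled to a common 75th percentile. With IFNa and IFNb the changes of Irf8 were -0.38 and -0.29 and were not called.

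**Figure D2:**
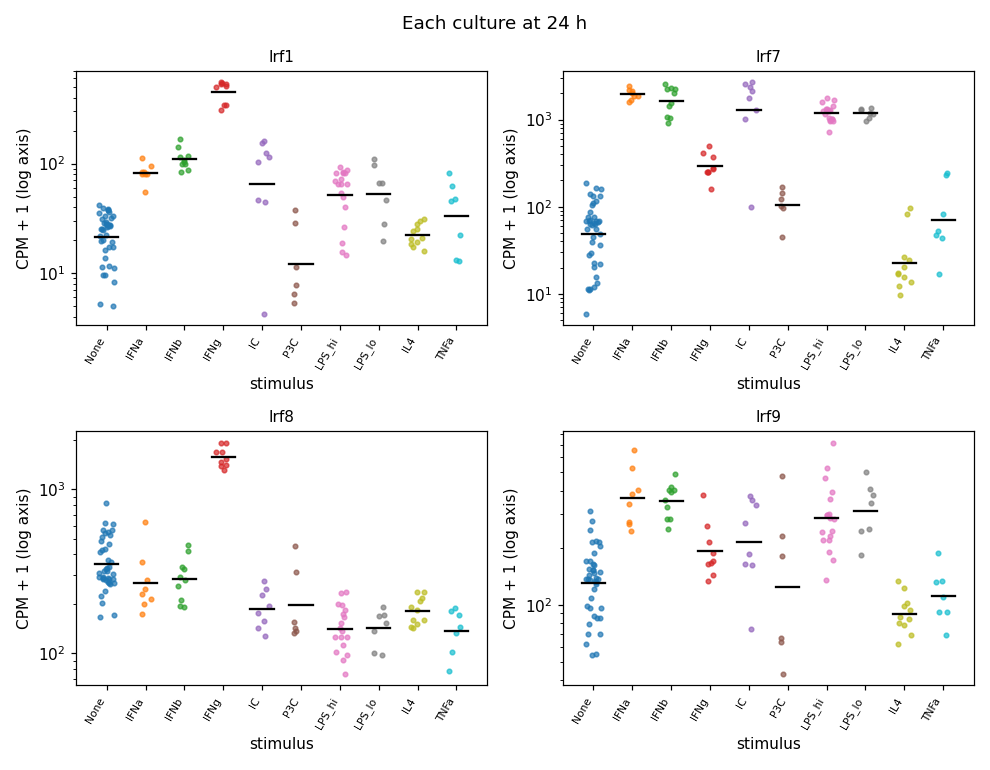
CPM + 1 of Irf1, Irf7, Irf8 and Irf9 in each culture at 24 h (points, log axis) by stimulus, with bars at the geometric mean. Geometric means of Irf1 and Irf8 were highest with IFNg and those of Irf7 with IFNa and IFNb. The highest single Irf7 culture was a polyIC culture (2671 CPM).

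At 24 h Irf9 rose with type I interferon and LPS. It was 141.3 ± 59.7 CPM in untreated cultures at 24 h (n = 40), 386 ± 142 CPM with IFNa (n = 8), 361 ± 74.4 CPM with IFNb (n = 10) and 310 ± 143 CPM with LPS at the higher dose (n = 18). The changes were 1.49 ± 0.29, 1.44 ± 0.26 and 1.13 ± 0.21, and the ranges overlapped with the untreated range in each case. The rise with LPS at the lower dose (1.27 ± 0.31) became 0.90 with the plate as a term, below the call. With IFNg Irf9 was at 201.5 ± 77.5 CPM, a difference of 0.56 that was not called.

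Irf5 rose with IFNg to 140.2 ± 21.9 CPM (n = 9) from 45.6 ± 21.1 CPM in untreated cultures, a change of 1.71 ± 0.24 (limma adjusted p = 3.55e-10). It rose by 1.18 ± 0.26 with IFNa and by 1.13 ± 0.26 with polyIC. With IFNb the change of Irf5 was 0.92, short of the call, and was called at 1.05 with the library pool as a term. Irf2 rose by 1.40 ± 0.33 with IFNb and by 1.39 ± 0.34 with IFNg. With the library pool as a term the IFNb value became 0.99. With the plate as a term the IFNg value of Irf2 became 0.99 and with the library pool 0.63, both below the call. With IFNa the change of Irf2 was 0.93, short of the call. It was called at 1.06 with the plate and at 1.20 with the library pool as a term. The rise of Irf2 with IL4 (1.05 ± 0.31) became 0.48 with the plate as a term. Irf3 was called in none of the 38 comparisons at 24 h, with log2 fold changes from -0.83 with IFNg to 0.32 with GMCSF.

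Irf4 was barely detected in untreated cultures: 20 of 40 at 24 h listed it at 0, and the highest held 4.24 CPM. IL4 gave 10.9 ± 5.60 CPM (n = 11, lowest 2.74, median 10.6, highest 20.7), a change of 2.85 ± 0.28 (limma adjusted p = 3.03e-19). IL13 gave 5.09 ± 4.09 CPM (n = 9), a change of 1.83 ± 0.31. MPP and valproic acid gave changes of 1.36 ± 0.32 and 1.11 ± 0.37 on means of 3.90 and 3.76 CPM. At a pseudocount of 5 the IL13, MPP and valproic acid changes were 0.77, 0.57 and 0.50, below the call, so these rested on very low values.

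P3C gave the single strongest fall at 24 h. Irf2 was at 0.627 to 22.3 CPM with P3C (n = 6) against 7.35 to 130.3 CPM in untreated cultures, a change of -2.86 ± 0.40 (limma adjusted p = 2.19e-10), where 20.1% of all genes were called. On 1 plate the P3C cultures held 0.627 to 3.75 CPM of Irf2 against 53.6 to 79 CPM untreated. On the other they held 6.64 to 22.3 CPM against 7.35 to 68.5 CPM untreated. On that second plate s100B (4.42 to 5.48 CPM) and AEA (8.22 to 20.2 CPM), with no call of Irf2, were about as low. No other member was called with P3C, and scaling to a common 75th percentile moved the median of all genes by 0.17 in that comparison and made the rise of Irf7 (1.11) a call at 1.54.

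One polyIC culture correlated better with the P3C cultures than with the other polyIC cultures (Pearson r 0.9553 against 0.9121). It held 99.1 CPM of Irf7 and 3.27 CPM of Irf1, whereas the other 7 held at least 1025 and 43.3 CPM. With all 8 cultures polyIC raised Irf1 by 1.61, Irf5 by 1.13 and Irf7 by 4.74, and without that culture by 2.17, 1.06 and 5.27. The Irf7 change without that culture lay between those of IFNb and IFNa at 24 h.

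The 3 interferons were then compared with each other at 24 h, where 6 of 24 pairs were called (25% of pairs, against 4.02% of all gene pairs). Irf1 was higher with IFNg than with IFNa by 2.45 ± 0.41 (limma adjusted p = 5.35e-07) and than with IFNb by 2.04 ± 0.39. Irf8 was higher with IFNg by 2.55 ± 0.25 and 2.46 ± 0.23, and Irf7 was lower by 2.74 ± 0.53 and 2.49 ± 0.50. The ranges of the cultures did not overlap in any of these 6 comparisons. No member was called between IFNa and IFNb, where 0.65% of all genes were called and the largest difference was -0.81 ± 0.40, of Irf4, the one member with an unadjusted p below 0.05. The doses of the interferons were not matched in biological activity, which was not measured.

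Other genes of the pathway were counted from lists. Of all genes tested, the share called higher was 3.22% with IFNa, 3.46% with IFNb, 4.4% with IFNg, 2.89% with polyIC, 5.25% with LPS at the higher dose and 3.22% with P3C. The share called lower was 7.87%, 3.81%, 3.66%, 6.1%, 10.9% and 16.9% in the same order. ISRE targets, genes that carry the interferon-stimulated element (Ifit1, Ifit2, Ifit3, Isg15, Mx1, Oasl2, Rsad2, Usp18 and Cxcl10) rose 9 of 9 with IFNa, IFNb, IFNg, polyIC and LPS at the higher dose, and 1 of 9 rose with P3C. Their median log2 fold change was 5.13 with IFNa and 2.66 with IFNg, against -0.18 and -0.04 over all genes. Of 10 listed genes that IRF1 is known to act on, 10 of 10 rose with IFNg, 9 of 10 with IFNa and with LPS at the higher dose, 8 of 10 with IFNb and with polyIC and 0 of 10 with P3C. Cxcl9, a chemokine for T cells, rose by 6.97 with IFNg and by 2.96 with IFNa, and Gbp2, a guanylate-binding protein, by 6.82 and 4.38. Of 8 binding partners and corepressors, 2 rose with IFNg and 1 rose and 1 fell with IFNa. Batf2, a partner of Irf1, rose by 4.83 with IFNg and by 2.27 with IFNa. Of the sensors and kinases 4 of 17 rose with each of the 3 interferons, and 1 of 17 (Tlr7) fell with IFNg. Of the 5 interferon genes listed only 1, Ifnb1, passed the filter on low values, and its changes were not called with any of the 6 stimuli counted. Of 5 IL4-induced genes tested, 2 rose and 1 fell with IFNg and with LPS at the higher dose, and 1 fell with each of IFNa, IFNb, polyIC and P3C.

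The second comparison was at 72 h. Of 256 pairs over 32 stimuli, 26 rose and 22 fell, or 18.8%, against 6.61% of all gene pairs (2.9% higher and 3.72% lower). Irf7 was at 39.9 ± 34.9 CPM in untreated cultures (n = 25), 1845 ± 632 CPM with IFNa (n = 7), 1089 ± 198 CPM with IFNb (n = 4) and 1443 ± 607 CPM with LPS at the higher dose (n = 13), with no overlap with the untreated range. Irf1 reached 521.5 ± 47.6 CPM with IFNg (n = 6), a change of 4.70 ± 0.39. Irf8 reached 982 ± 412 CPM with IFNg, a change of 1.37 ± 0.23, against 2.17 at 24 h. Irf9 was called higher with 5 stimuli at 72 h, among them IFNa (3.06-fold), IFNg (2.12-fold) and polyIC (2.11-fold). With the plate as a term the log2 changes of Irf9 with IFNg and polyIC, 1.09 and 1.08, were 0.87 each, below the call. With IFNb the change of Irf9 at 72 h was 1.21 and was not called.

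Falls at 72 h were mostly of Irf2, Irf8 and Irf9, and mostly with P3C, TNFa and PGE2. Irf2 fell with P3C (by 1.59 ± 0.42), with TNFa and P3C (by 2.10 ± 0.40), and with LPS at the higher dose (by 1.26 ± 0.32). Its values with MPP, GABA and eotaxin (-1.33, -1.11 and -1.38) were called too, but with none of the 3 when each time point was fitted separately, and that with MPP was -0.84 with the library pool as a term. With the plate as a term the values for GABA and LPS became -0.69 and -0.81, below the call. Irf9 fell with P3C and PGE2 (by 1.5 ± 0.32) and with TNFa and PGE2 (by 1.81 ± 0.30). With IL13 its change was -1.32 ± 0.34, which was not called in a separate fit of the time point (adjusted p = 0.07). The 3 IL13 cultures on 1 plate held 8.98, 13.6 and 147.7 CPM and the 3 on the other 101.9 to 158.3 CPM. Irf5 fell with TNFa and P3C, to 13.1 ± 8.11 CPM (n = 7) from 38.3 ± 14.6 CPM, a change of -1.60 ± 0.28 (limma adjusted p = 7.62e-07). Irf3 fell with polyIC, to 41.4 ± 24.7 CPM (n = 6) from 86.6 ± 37.7 CPM, a change of -1.53 ± 0.33, and 1 of those cultures held 0.781 CPM. Irf4 rose with IL13 at 72 h, to 5.67 ± 5.43 CPM (n = 6), a change of 1.52 ± 0.38 that was 0.73 at a pseudocount of 5.

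The question of whether a response differed between 24 and 72 h was tested as an interaction for 12 stimuli. Of 96 pairs, 3 were called, or 3.12%, against 2.61% of all gene pairs, a share near the background. They were Irf3 with polyIC (-1.41 ± 0.44), Irf8 with P3C (-1.20 ± 0.32) and Irf2 with LPS at the higher dose (-1.51 ± 0.41), and none of the 3 was called with the plate or with the library pool as a term. With the plate term Irf8 was called instead for IFNg (-1.12, against -0.81) and for LPS at the lower dose (1.29, against 1.00), and without the polyIC culture described above Irf1 was called for polyIC (-1.68). The value of Irf4 with IL4 (-1.95 ± 0.58) had an adjusted p of 0.0609 in limma, was called with p adjusted over all comparisons together, and was -1.08 and called at a pseudocount of 5.

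The lowest Irf8 levels of all groups were with P3C at 72 h (92 ± 31 CPM, n = 6), a change of -2.03 ± 0.23 against 384.7 CPM in untreated cultures. Irf9 fell most with TNFa, P3C and PGE2 together, to 35.7 ± 21.2 CPM (n = 7) from 175.3 CPM untreated, by 2.25. Adding IFNb to that mixture gave 465 ± 180 CPM (n = 7), higher by 3.78 ± 0.40 (limma adjusted p = 4.44e-17), and Irf7 went from 27.4 ± 7.55 to 1045 ± 374 CPM, higher by 5.17 ± 0.59. The cultures with and without IFNb did not overlap for either gene.

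Over the 5 comparisons of additions to TNFa, 13 of 40 pairs were called (32.5%), where 21.4% of all gene pairs were. TNFa with IFNg held more Irf1 than TNFa alone by 4.46 ± 0.57, and its cultures all lay at or above 484.8 CPM against 86.6 CPM at most. TNFa alone at 72 h was 3 cultures on 1 plate. Its Irf2 values were 90.1, 2.02 and 0.848 CPM, so the rises of Irf2 against TNFa alone rested on 2 low cultures.

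LPS at 4 h had no untreated group of the same time, so stimulus and time cannot be told apart against untreated cultures at 24 h. Against these, 8 of 48 pairs over 6 stimuli were called (16.7%, against 7.13% of all gene pairs), and 5 of the 8 were with LPS, where 29.3% of all genes were called. The other calls were Irf4 (1.87 ± 0.40) and Irf8 (-1.17 ± 0.24) with ATP and Irf2 (1.18 ± 0.36) with nicotine. Irf1 was at 807.1 to 1247 CPM (n = 7, median 913.9), the highest level of any group. Against the mean of the 5 groups exposed for 4 h without LPS, a control chosen after the data were seen, LPS raised Irf1 by 5.28 ± 0.35, Irf7 by 2.99 ± 0.46, Irf8 by 2.54 ± 0.21, Irf9 by 1.51 ± 0.31 and Irf5 by 1.32 ± 0.27 (5 of 8 members, where 23.8% of all genes were called). Of these control groups, ATP and norepinephrine held less Irf8 than untreated cultures at 24 h (changes of -1.17 and -0.95). Against untreated cultures at 24 h the rise of Irf8 with LPS was 2.15 ± 0.21.

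Compared with 24 h of LPS, 4 h of LPS held more Irf1 (by 4.23 ± 0.38), more Irf8 (by 3.45 ± 0.23) and more Irf5 (by 1.17 ± 0.29), and less Irf7 (by 1.66 ± 0.49 lower), where 14.7% of all genes were called. Irf8 thus lay above the untreated mean at 4 h of LPS and below it at 24 h. The plates differed widely for Irf8 at 4 h of LPS. Its 3 cultures on 1 plate held 515.7, 799.5 and 841.5 CPM and its 4 on another 2351 to 3048 CPM, where untreated medians at 24 h were 288.4 and 485.8 CPM.

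**Figure D3:**
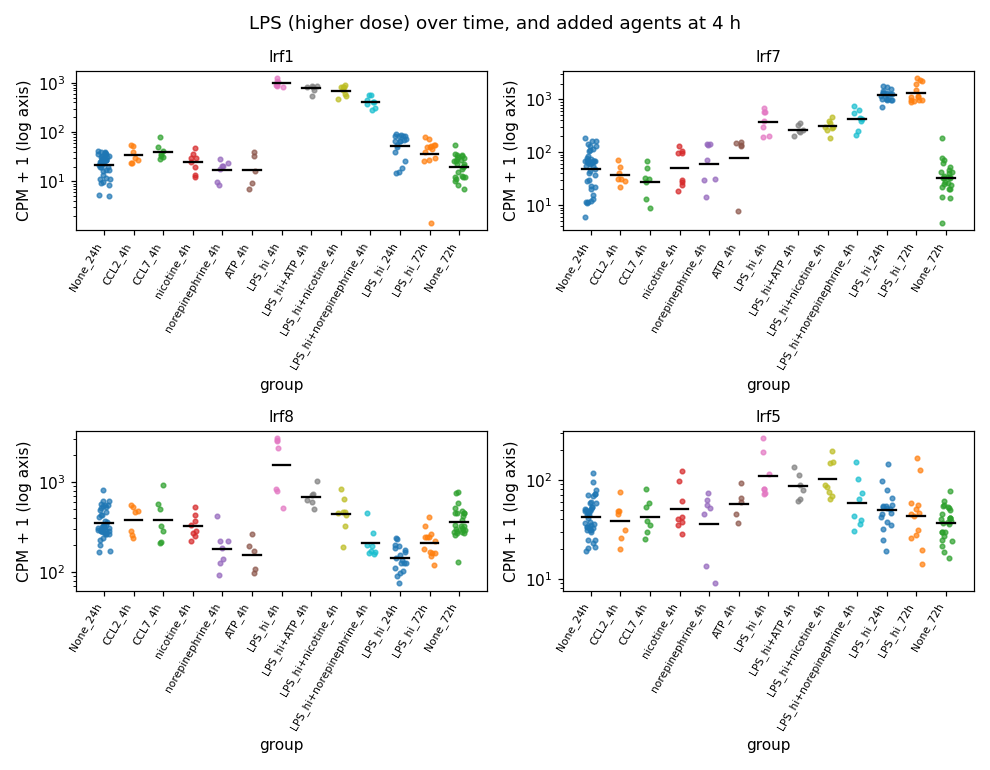
CPM + 1 of Irf1, Irf7, Irf8 and Irf5 in each culture (points, log axis) untreated, exposed for 4 h without LPS, with LPS at the higher dose for 4, 24 and 72 h, and with LPS plus ATP, nicotine or norepinephrine for 4 h. Bars are geometric means, and the Irf8 cultures at 4 h of LPS fall into a low and a high cluster.

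Agents added to LPS were compared with LPS alone at the same dose and time. Of 152 pairs, 6 were called (3.95%, against 1.16% of all gene pairs). Irf8 was lower with ATP (by 1.18 ± 0.28), nicotine (by 1.81 ± 0.26) and norepinephrine (by 2.89 ± 0.26) added to LPS for 4 h. With norepinephrine it was at 160.6 to 195.1 CPM on the first plate and 158.7 to 453.9 CPM on the second, below LPS alone on each plate. With ATP it was at 594.7 and 631.3 CPM on the first plate, inside the range of LPS alone there. All 3 calls held with the plate as a term. Without LPS, 4 h of ATP, nicotine and norepinephrine changed Irf8 by -1.17, -0.10 and -0.95 against untreated cultures at 24 h. The value with norepinephrine alone (limma adjusted p = 0.000434) missed the call by its size, and was called at -1.16 with the plate as a term.

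The other 3 calls were of IFNg added to LPS at the lower dose for 72 h, where Irf1 was higher by 3.33 ± 0.41, Irf8 by 1.96 ± 0.24 and Irf5 by 1.20 ± 0.32. Irf1 went from 63.1 ± 21.2 CPM (n = 11) to 610 ± 75.8 CPM (n = 7) with no overlap. Resveratrol, rapamycin, IL10 and TGFb added to LPS moved no member to a call, and Irf7 changed by -0.42 with resveratrol. Between the 2 LPS doses 1 of 16 pairs was called (6.25%, against 2.58% of all gene pairs), Irf2 at 72 h by -1.43 ± 0.38, and it was not called with the plate as a term (-0.79).

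In LPS-treated mice 4 of 8 members passed an adjusted p of 0.05, where 22.4% of all genes did and no minimum fold was set. Irf1 was at 38.5, 26.8, 35 and 35.7 CPM in PBS mice and at 225.3, 207.6, 205.7 and 199.6 CPM in LPS mice, higher by 2.60 ± 0.14 (limma adjusted p = 4.89e-09). Irf7 was at 7.65, 8.52, 5.14 and 6.38 CPM in PBS mice and at 27, 45.3, 47.4 and 42.3 CPM in LPS mice, higher by 2.38 ± 0.23 (limma adjusted p = 2.21e-06). Neither pair of groups overlapped.

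Irf9 was at 278.6 to 345.8 CPM in PBS mice and 465.99 to 561.5 CPM in LPS mice, higher by 0.74 ± 0.12 (limma adjusted p = 0.000619). Irf4 was lower by 0.86 ± 0.27, at 6.23 to 13.3 CPM in PBS mice and 4.17 to 5.46 CPM in LPS mice (limma adjusted p = 0.0343). That call was lost without any 1 of 6 of the 8 mice. Irf8 was at 846.6 to 979.8 CPM in PBS mice and 788.4 to 1016 CPM in LPS mice, a difference of 0.02 ± 0.12. Of the ISRE targets 8 of 8 tested rose, and 5 of 8 tested genes of the list that IRF1 acts on did, where 8.79% of all genes were called higher.

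**Figure D4:**
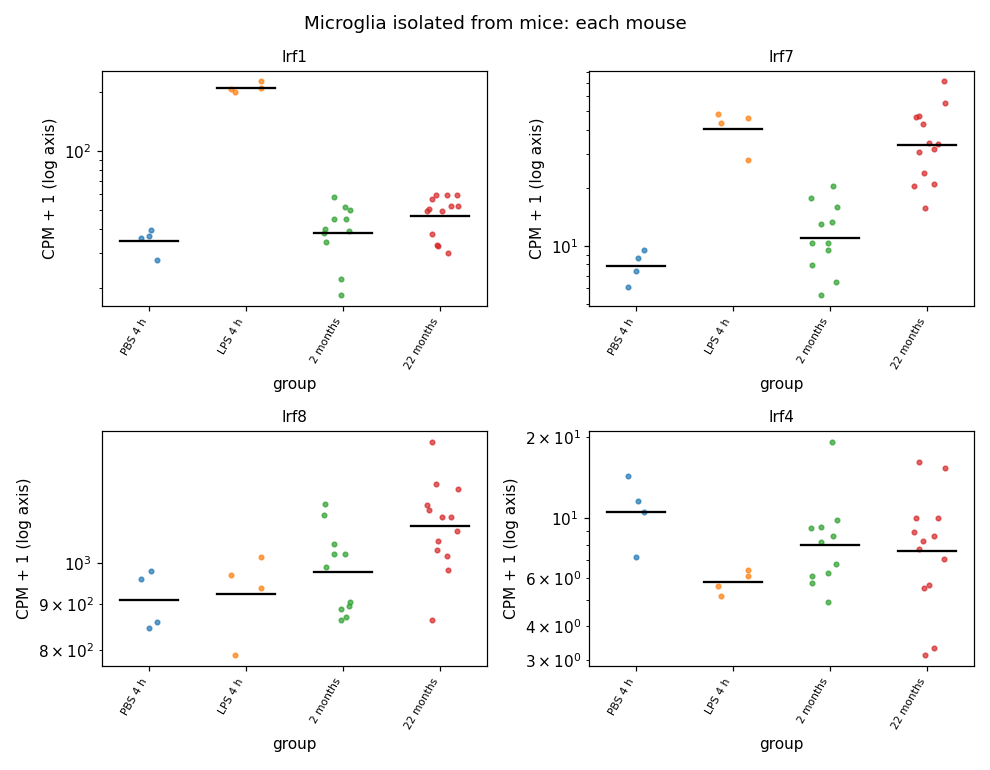
CPM + 1 of Irf1, Irf7, Irf8 and Irf4 in each mouse (points, log axis) by group, with bars at the geometric mean. The PBS and LPS groups do not overlap for Irf1, Irf7 and Irf4, and the 22-month-old mice reach 70.6 CPM of Irf7 against 19.5 CPM at 2 months, with overlapping ranges.

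Neutrophil markers (S100a8, S100a9 and Camp) summed to 50.0 to 115.4 CPM in PBS mice and 114.4 to 217.9 CPM in LPS mice, and their part in these results was not tested. In bulk samples fewer cells of a type and less RNA per cell cannot be told apart.

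In aging mice 7 members were tested and 1 was called, where 10.8% of all genes were. Irf7 was at 4.54 to 19.5 CPM (n = 11, median 9.39) at 2 months and at 14.8 to 70.6 CPM (n = 13, median 32.7) at 22 months, higher by 1.57 ± 0.20 (limma adjusted p = 1.78e-06). The mice came from 2 library series, and the difference was 1.23 in the first and 1.75 in the second, and Irf7 was called in each. Irf9 missed the call at 0.21 ± 0.07 (limma adjusted p = 0.0502), and Irf1 was higher by 0.25 ± 0.10 (limma adjusted p = 0.141). Irf8 differed by 0.16 ± 0.07 (limma adjusted p = 0.125) over both series and was called in the second series alone, at 0.24.

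Irf3 did not pass the filter. It was at 49.8 to 80.7 CPM in the 8 mice of the first series and at 0 to 5.75 CPM in the 16 of the second. Neutrophil markers summed to a median of 445.4 CPM at 2 months and 912.0 CPM at 22 months, monocyte markers (Ccr2, Ly6c2 and S100a4) to 53.6 and 115.2 CPM, and T cell markers (Cd3e, Trbc2 and Cd8a) to 2.29 and 15.7 CPM, and their part in the Irf7 difference was not tested. Of the ISRE targets 6 of 7 tested rose with age, and 5 of 5 tested genes of the list that IRF1 acts on did, where 6.95% of all genes were called higher.

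The genes whose means followed each member most closely over 97 groups of cultures were found by Pearson correlation of mean log2 values, given as a description. Irf7 followed Oas3 (r = 0.966), Usp18 (0.962) and Zbp1 (0.957), and Irf9 followed Oasl2 (0.891), Xaf1 (0.884) and Rtp4 (0.882). Irf1 followed Fam26f (0.932) and Batf2 (0.902). The closest genes to Irf2, Irf3, Irf4, Irf5 and Irf8 had r of 0.691 (Asb13), 0.664 (Cyb5b), 0.665 (Clec10a), 0.685 (Tapbpl) and 0.711 (Abhd16a). Among the members the highest r was between Irf7 and Irf9 (0.83), and Irf7 with Irf8 had -0.13. Groups on the same plates share the conditions of those plates.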

How the data were processed

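Values were deposited as 1 table for cultures and 1 for mice. The authors quantified reads with Salmon 0.7.1 per the labels, whose notes list genome build mm8. The deposited values sum to 996124.8 to 999918.3 per culture and were treated as CPM, although the authors call them TPM. Those of the mice sum to 885237 to 983443.4 per mouse, so the mouse totals were less even. Depth was estimated from the step between low values, and counts could not be recovered. The members and gene lists were chosen with earlier results of these data known. All cultures of groups with at least 2 entered 1 limma 3.58.1 fit (trend, R) on log2(CPM + 1), with a filter of more than 5 CPM in at least 4 cultures, 1 mean per group and Benjamini-Hochberg adjustment over all genes within a comparison. LPS mice (filter in 4 mice) and aging mice (filter in 11, library series as a term) were fitted separately. Calls needed an adjusted p below 0.05, and, in cultures, a log2 change of 1 or more in either direction. Named genes were the members, 3 most alike genes per member, and at most 3 of each list. Alternatives were other pseudocounts, filters and scalings, plate and library pool terms, a rank-sum test and omitted samples. The procedure was tested on simulated data. Replicates carry no pairing, and the labels do not say that cultures are independent, so p-values measure the spread between these samples. One 72 h culture with conflicting dose labels entered no comparison. Some genes of the lists are not reported here.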

Additional observations from a re-analysis of the deposited data

Results flagged for a closer look

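Among 84 sets of values, each of 1 called member in 1 group of 4 to 10 samples, 9 held 1 sample far from the others. Chance gives about 1 in 20, and the 9 came from 7 groups and were not independent. Lowest samples were Irf1 with GABA at 72 h (0 CPM), Irf1 and Irf7 with polyIC at 24 h (3.27 and 99.1 CPM, the same culture), Irf3 and Irf7 with polyIC at 72 h (0.781 and 36.9 CPM), Irf2 with IFNg at 24 h (79.8 CPM), Irf7 with TNFa and IFNg at 72 h (121.3 CPM) and Irf9 with TNFa and PGE2 at 72 h (1.35 CPM). The highest sample was Irf8 with IFNg at 72 h (1796 CPM).

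Between 24 and 72 h the response differed, by a test of the interaction, for Irf3 with polyIC (-1.41), Irf8 with P3C (-1.20) and Irf2 with LPS at the higher dose (-1.51, all log2). None of these was called with the plate or the library pool as a term, and the share of pairs called was near that of all genes. The 72 h culture with conflicting dose labels, in no comparison, held 1097 CPM of Irf7, above every untreated culture at 72 h.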

How the results depend on the processing

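No paired analysis was possible because the labels give no replicate numbers that pair samples, and the culture plate was fitted as a term instead. No called value of a member changed direction under any alternative run. The exact rank-sum test called 23 of 304 pairs at 24 h, 2 of 48 at 4 h and 10 of 256 at 72 h. In the same order limma called 32, 8 and 48 pairs, so most limma calls at 4 and 72 h were not rank-sum calls. The rank-sum test could reach its threshold in 27 of the 32 comparisons at 72 h. With the plate or the library pool as a term 0 of 16 pairs were called between LPS doses. A minimum log2 fold change of 1 left 2 members in LPS mice, and the second library series of aging mice alone called 2. Without the polyIC culture that resembled P3C, 32 pairs were called at 24 h. Leaving out 1 sample at a time gave 7 to 9 calls at 4 h, 46 to 49 at 72 h, 3 to 4 for the responses over time, 6 for agents added to LPS, 13 to 16 for additions to TNFa and 3 to 4 in LPS mice. Cultures were left out only in groups of 5 or fewer, so none of LPS at 4 h was, and those left out for agents added to LPS were in groups with no call. A separate fit per time point ended 10 calls, all at 72 h. Plate or pool terms ended several calls of Irf2, and a pseudocount of 5 those of Irf4 in cultures other than with IL4 at 24 h and ATP at 4 h.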
